A study of Homo sapiens with 9 samples.

Results

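SREBF1, SREBF2, SCAP, INSIG1, INSIG2, MBTPS1 and MBTPS2 encode the sterol-sensing machinery that makes active SREBP, and they were read as 7 of the 23727 genes in a count table of LN229 cells. They were chosen by symbol, matched to their Ensembl identifiers, and all 7 passed the filter on low counts, as did 15273 genes in all. LN229 is an established human glioblastoma line; the growth protocol names it, while the source label spells the line LN299. The groups were untreated cells at 0 h and cells given 500 µM sodium formate for 8 h or for 24 h, with 3 libraries each. All cells shared DMEM-based medium (glucose at 17 mM, glutamine at 2 mM) that held fetal bovine serum at 10%, and serum also brings lipoproteins. No untreated cells of 8 h or 24 h were used here, so formate and time in culture cannot be told apart in any difference from 0 h.

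SREBF1 and SREBF2 encode SREBP-1 and SREBP-2, transcription factors that are made as precursors anchored in the membrane of the endoplasmic reticulum. SCAP escorts them: when sterols are scarce, the SCAP-SREBP complex enters COPII vesicles and reaches the Golgi, where site-1 protease (MBTPS1) and then site-2 protease (MBTPS2) cut the precursor and release its active part to the nucleus. When sterols are plentiful, INSIG1 and INSIG2 bind SCAP and hold the complex back. SREBP-2 mainly drives cholesterol synthesis and uptake and SREBP-1 fatty acid synthesis, and SREBF2, SREBF1 and INSIG1 are themselves known SREBP targets. Gene counts show mRNA only: cleavage of the precursors was not measured, and the SREBP-1a and SREBP-1c transcripts of SREBF1 were not separated.

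The libraries held between 22222298 and 25848242 counts, and the members lay between the 50.5th percentile (INSIG2) and the 92.4th (SREBF2) of mean level among tested genes. Of the 7 neural and glioma markers, VIM was between 3200 and 6280 CPM (the usual CPM unit, relative to the TMM-scaled library total), NES between 887 and 1010, CD44 between 703 and 1120, S100B between 59.2 and 395, SOX2 between 67.2 and 103 and OLIG2 between 6.59 and 13.0, while GFAP did not exceed 0.425. CDKN2A, a locus deleted in this line, had at most 1 count in any library. Of the markers of other cell types with a row, EPCAM, CDH1, PTPRC, PECAM1 and APOA1 had at most 3 counts, CD14 at most 11 and VWF at most 38, while KRT18, an epithelial keratin, was between 89.4 and 184 CPM. Replicate 1 at 0 h and at 8 h stood apart from the others in its group on the main axis of variation of the 500 most variable genes, with scores of -23.5 and -21.56 against -0.7978 to -3.411 for replicates 2 and 3. Some of the members' fold changes, ratios, levels per kb, correlations and list counts below are also given without replicate 1 of every group. For all but the fold changes, this setting was added after the data were seen. In bulk RNA, a change in the share of cells that express a gene and a change in RNA per cell cannot be told apart.

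The 250 bases before the RefSeq start of the genes that rose, and of INSIG2 as the paralog that did not, are shown to place the short motifs named below; capitals mark TCACNCCAC (a sterol regulatory element, the SREBP site), CCAAT (bound by NF-Y), GGGCGG (bound by SP1) and CACGTG (an E-box) on either strand. RefSeq sequences on GRCh38.p14 matched all 7 members, with 8 entries since INSIG2 has 2 starts. The windows are chr22:41832855-41833104 on the plus strand for SREBF2, chr7:155297628-155297877 on the plus strand for INSIG1, chr17:17836987-17837236 on the minus strand for SREBF1 and chr2:118088221-118088470 on the plus strand for the upstream INSIG2 start.
SREBF2: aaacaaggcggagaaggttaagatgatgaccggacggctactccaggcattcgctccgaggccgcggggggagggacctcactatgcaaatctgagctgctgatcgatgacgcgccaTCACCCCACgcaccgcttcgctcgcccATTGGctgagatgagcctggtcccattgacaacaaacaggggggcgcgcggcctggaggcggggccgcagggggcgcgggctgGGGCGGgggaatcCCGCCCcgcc
INSIG1: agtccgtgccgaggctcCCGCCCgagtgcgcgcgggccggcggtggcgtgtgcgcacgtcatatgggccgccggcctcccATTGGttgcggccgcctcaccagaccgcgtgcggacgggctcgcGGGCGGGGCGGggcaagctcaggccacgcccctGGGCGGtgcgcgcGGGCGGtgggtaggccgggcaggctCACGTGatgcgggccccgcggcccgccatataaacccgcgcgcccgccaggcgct
SREBF1: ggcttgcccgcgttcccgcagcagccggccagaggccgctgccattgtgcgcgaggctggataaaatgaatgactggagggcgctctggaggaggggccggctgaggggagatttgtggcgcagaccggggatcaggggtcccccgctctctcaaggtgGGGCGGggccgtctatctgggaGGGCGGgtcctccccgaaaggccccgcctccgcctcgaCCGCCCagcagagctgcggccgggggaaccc
INSIG2: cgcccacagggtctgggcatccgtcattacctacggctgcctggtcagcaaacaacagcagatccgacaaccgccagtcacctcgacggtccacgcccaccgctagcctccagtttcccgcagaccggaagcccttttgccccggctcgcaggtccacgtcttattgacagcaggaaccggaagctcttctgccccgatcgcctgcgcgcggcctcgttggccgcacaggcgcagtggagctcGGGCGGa

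The sterol regulatory element letters were found in 1 of the 7 members, SREBF2, where TCACCCCAC lies 133 to 125 bases before the start. The same letters were in 0.883% of 35116 promoter windows of this length. CCAAT was found in SREBF2 and INSIG1, on the minus strand in both, against 32.0% of windows. CACGTG was found in INSIG1, 55 to 50 bases before the start, and in SCAP, against 6.34% of windows. GGGCGG was found in 5 members (INSIG1, INSIG2, SCAP, SREBF1 and SREBF2), against 42.6% of windows, and 2 of the 5 matches in INSIG1 share a base. These matches describe letters in a fixed window, and transcript starts outside these RefSeq entries were not searched. GENCODE lists 23 transcript starts for SREBF1, and the RefSeq start of SCAP lies 1185 bases from its GENCODE gene start. No binding was measured.

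SREBF2 and SREBF1 each carry a microRNA of the miR-33 family on their own strand, between exons: MIR33A lies at 41900944 to 41901012 on chromosome 22 and MIR33B at 17813836 to 17813931 on chromosome 17. They are shown because they lie inside members; the capitals mark the seed (bases 2 to 8), which is UGCAUUG in both.
hsa-miR-33a-5p: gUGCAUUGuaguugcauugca
hsa-miR-33b-5p: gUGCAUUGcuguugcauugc
The miR-33 family is known for lowering the sterol exporter ABCA1. Its levels were not analysed here.

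The transcription factors came first. SREBF2 (ENSG00000198911, chromosome 22, 41833079 to 41907308, plus strand) had 97.84, 139.1 and 150.2 CPM in untreated replicates 1, 2 and 3. It had 109.3, 144.2 and 148.2 CPM after 8 h and 265.7, 266.5 and 288.5 CPM after 24 h. Every library of 24 h was above every other library, and the libraries of 0 h and 8 h overlapped. The fitted rise from 0 h to 24 h was 2.12-fold (log2 fold change 1.08, standard error 0.16), with an adjusted p of 0.01669 by the quasi-likelihood test of edgeR (Benjamini-Hochberg over all tested genes), rank 24 by p of the 15273 tested genes. An antisense gene, SREBF2-AS1, overlaps 3.71% of its exons and had at most 10 counts in a library.

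SREBF1 (ENSG00000072310, chromosome 17, 17810399 to 17837002, minus strand) had 52.48, 78.87 and 88.86 CPM in the untreated libraries. It had 51.4, 82.34 and 88.93 CPM at 8 h and 152.9, 138.7 and 148.1 CPM at 24 h. Replicate 1 was the lowest library at 0 h and at 8 h and the highest at 24 h, and all libraries of 24 h lay above the rest. The rise from 0 h to 24 h was 2.00-fold (log2 fold change 0.997, standard error 0.21, adjusted p 0.03105 by edgeR). RAI1, on the opposite strand and with 1579 to 3628 counts per library, covers 6.92% of its exonic bases, and the strand setting of the counting is not given in the sources used here.

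SCAP, the escort (ENSG00000114650, chromosome 3, 47413694 to 47477126, minus strand), had 80.6, 78.52 and 76.93 CPM in the untreated libraries, 81.97, 75.47 and 78.98 at 8 h, and 78.56, 74.31 and 77.78 at 24 h. The groups overlapped in every comparison. Its log2 fold change from 0 h to 24 h was -0.03, with a 95% confidence interval of -0.21 to 0.15 and an adjusted p of 0.8169 by edgeR. This is the narrowest interval among the members, and it does not reach the size of the rise in either SREBF gene.

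INSIG1, the sterol-dependent retention factor that is also an SREBP target (ENSG00000186480, chromosome 7, 155297776 to 155310235, plus strand), showed the greatest change of the 7. It had 20.68, 35.78 and 46.82 CPM in the untreated libraries and 19.23, 36.36 and 43.28 CPM at 8 h. At 24 h it had 108.3, 108.7 and 120.5 CPM. The spread between replicates was wide at 0 h and 8 h, with replicate 1 lowest both times, and narrow at 24 h. The log2 fold change from 0 h to 24 h had a 95% confidence interval of 1.06 to 2.36, a 3.27-fold rise (adjusted p 0.02022 by edgeR), and it ranked 32 from the top by size of rise among tested genes.

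INSIG2 (ENSG00000125629, chromosome 2, 118088452 to 118110997, plus strand), the paralog with the same retention role, had 26.43, 23.81 and 23.03 CPM untreated. It had 22, 20.72 and 25.34 CPM at 8 h and 18.97, 24.79 and 23.48 CPM at 24 h. The groups overlapped, and the log2 fold change from 0 h to 24 h was -0.12 (95% confidence interval -0.40 to 0.16, adjusted p 0.5479 by edgeR). Without replicate 1 of every group the fitted value was 0.044, so the sign of this difference was not stable.

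The proteases did not pass the test. MBTPS1 (ENSG00000140943, chromosome 16, 84053761 to 84116906, minus strand) had 149, 181.1 and 172.6 CPM untreated. It had 146.1, 179.8 and 171.4 CPM at 8 h and 188.4, 196 and 190.5 CPM at 24 h. The libraries of 24 h lay above all the others, but the log2 fold change from 0 h was 0.19 (95% confidence interval -0.05 to 0.43) with an adjusted p of 0.2731 by edgeR and 0.09273 with the replicate number as a block. Without untreated replicate 1, the lowest of its group, the log2 fold change was 0.098.

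MBTPS2 (ENSG00000012174, chromosome X, 21839636 to 21885424, plus strand) had 32.32, 47.13 and 42.18 CPM untreated. It had 44.73, 47.64 and 40.47 CPM at 8 h and 43.61, 39.91 and 36.16 CPM at 24 h. The groups overlapped, and the log2 fold change from 0 h to 24 h was -0.024 (95% confidence interval -0.33 to 0.28, adjusted p 0.9231 by edgeR). The intronless gene YY2 lies within it on the same strand, and with a Y RNA shares 13.39% of its exons; YY2 itself had between 22 and 44 counts per library.

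**Figure D1:**
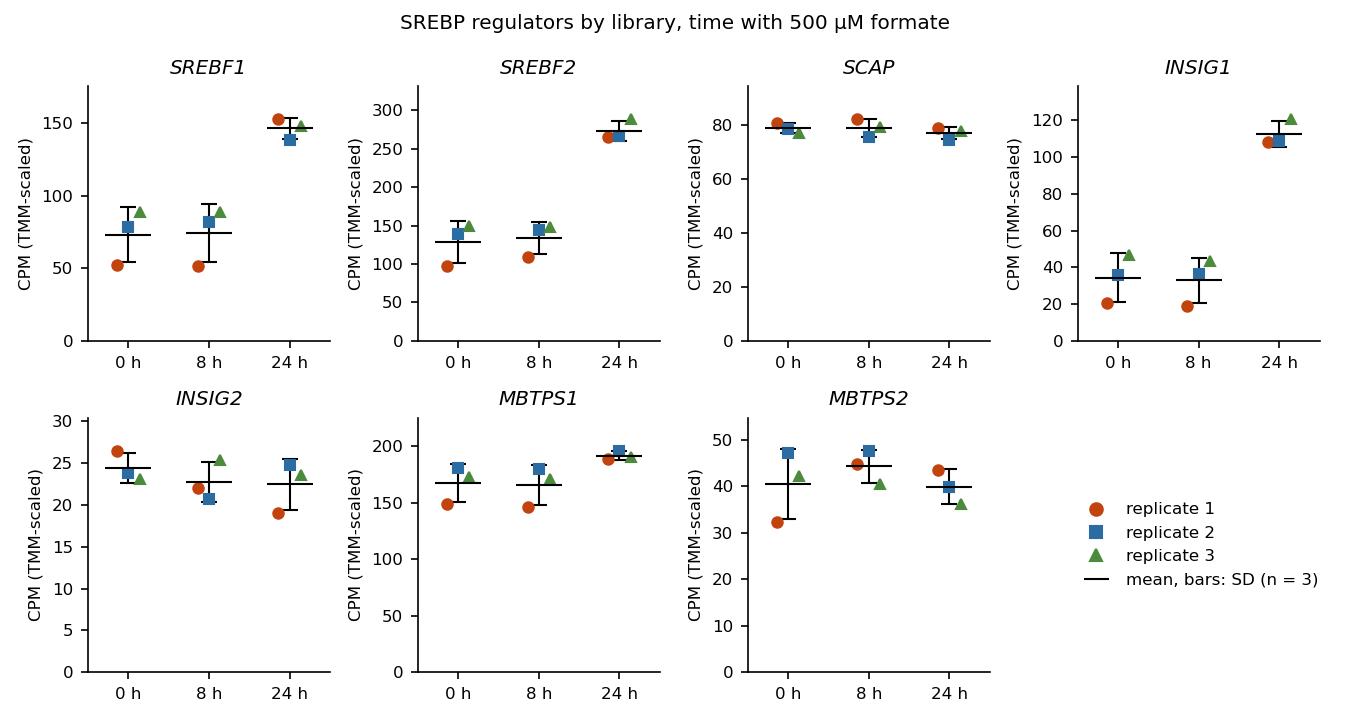
Each panel shows 1 gene's TMM-scaled CPM (y axis, from 0) in the 3 libraries of each time (x axis, hours with 500 µM formate, 0 h untreated), with the mean and SD over 3 libraries. SREBF1, SREBF2 and INSIG1 at 24 h sit above every library of 0 h and 8 h, MBTPS1 does so by a small margin, and SCAP stays between 74.31 and 81.97 CPM in all 9 libraries.

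Read together at 24 h against 0 h, 3 of the 7 members rose (SREBF1, SREBF2 and INSIG1), none fell and 4 did not pass. Over all tested genes 2.47% were called higher and 4.25% in either direction. The libraries of 24 h lay wholly above those of 0 h for 4 members, MBTPS1 being the fourth, against 15.9% of all tested genes (14.4% lay wholly below and 30.3% either way). Several markers also differed between 0 h and 24 h: the glial S100B rose from 130 ± 46.2 to 339 ± 53.5 CPM and the endothelial VWF from 0.424 ± 0.131 to 1.28 ± 0.273 CPM (SD, n = 3), with adjusted p-values of 0.04602 and 0.03038 by edgeR. With the replicate block OLIG2 also rose, and VIM, CD44 and KRT18 fell (adjusted p 0.03026, 0.00858, 0.006902 and 0.003331 by edgeR). The part of these shifts in the members' rise was not tested. The median log2 fold change of the 7 was 0.19, beside 0.0071 over all tested genes. An unadjusted p under 0.05 was reached by 26.4% of tested genes and by the same 3 members. With the replicate block these 3 members were called, beside 24.1% of all genes in either direction (12.6% higher, 11.6% lower).

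The question of which library the calls rest on had the same answer for all 3 genes. Without replicate 2 of 24 h the adjusted p was 0.1293 for SREBF1, 0.1023 for SREBF2 and 0.108 for INSIG1, and without replicate 3 of 24 h it was 0.1475, 0.09788 and 0.1117, by edgeR. Neither omission called any gene in the whole table by edgeR, with 2549 and 2563 genes at an unadjusted p under 0.05, and DESeq2 was not run on these subsets. The fold changes themselves hardly moved: INSIG1 had log2 fold changes of 1.72 and 1.64 in those fits, SREBF2 1.09 and 1.04 and SREBF1 1.03 and 0.98. With the replicate block, all 9 fits that left out 1 library called all 3 genes, with a highest adjusted p of 0.00388 for SREBF1, 0.000959 for SREBF2 and 0.00102 for INSIG1 by edgeR. The block raised the calls across the whole table as well: these 9 fits called between 2213 of 15613 and 3815 of 15591 tested genes.

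Leaving out untreated replicate 1, or replicate 1 of every group, kept the 3 calls at 24 h against 0 h and lowered the fold changes. Over the whole table these fits called 356 of 15598 and 2616 of 15470 tested genes. Without untreated replicate 1 the log2 fold change from 0 h to 24 h was 0.79 for SREBF1 (adjusted p 0.04985 by edgeR), 0.90 for SREBF2 (0.01435) and 1.43 for INSIG1 (0.02512). Without replicate 1 of every group it was 0.78 for SREBF1, 0.94 for SREBF2 and 1.48 for INSIG1, with adjusted p-values of 0.0004684, 0.0002537 and 0.0002587 by edgeR.

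**Figure D2:**
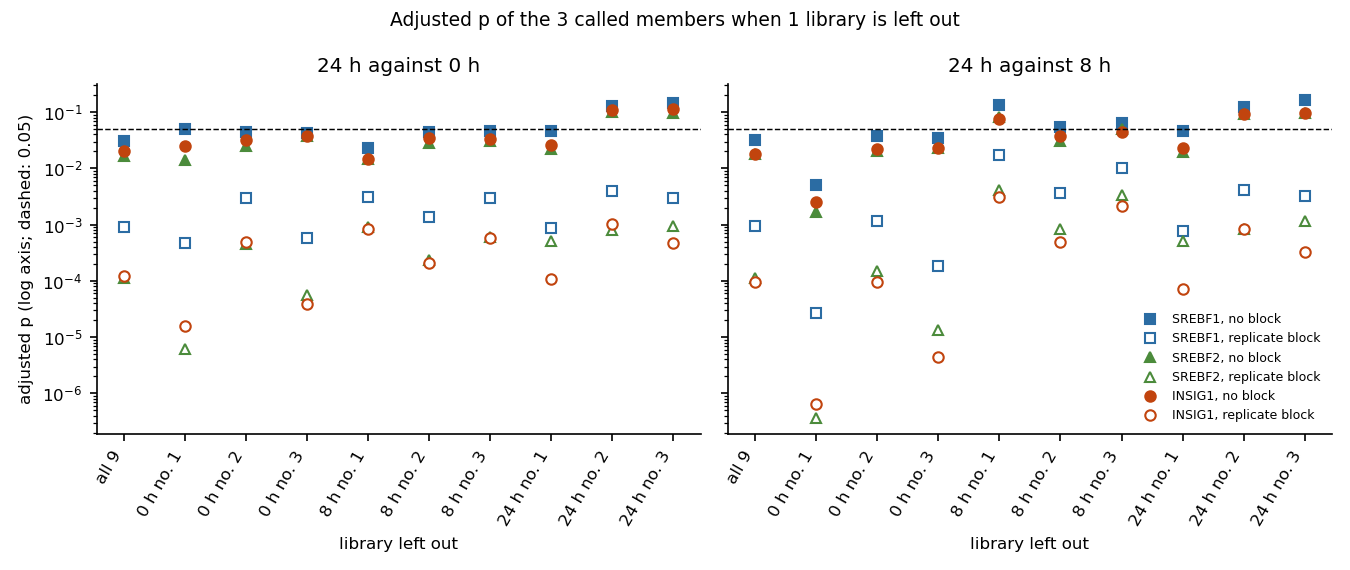
Adjusted p of SREBF1, SREBF2 and INSIG1 (y axis, log scale, dashed line at 0.05) with all 9 libraries and with each library left out in turn (x axis), without the replicate block (filled) and with it (open), for 24 h against 0 h (left) and against 8 h (right). All filled points rise above the line without replicate 2 or 3 of 24 h in both panels and also without replicate 1 of 8 h on the right. The right panel also has SREBF1 and SREBF2 above it without replicate 3 of 8 h, and SREBF1 without replicate 2 of 8 h. All open points lie below the line.

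After 8 h, no member differed from 0 h. By edgeR 0 of 7 had an adjusted p under 0.05, and 0% of all tested genes did. The members' log2 fold changes lay between -0.11 (INSIG2) and 0.13 (MBTPS2), and the smallest unadjusted p was 0.3809, for MBTPS2, against 0.517% of all genes with an unadjusted p under 0.05. DESeq2 also called none. The precision differed between members: the 95% confidence interval was -0.18 to 0.18 for SCAP and -0.71 to 0.58 for INSIG1. The data at 8 h were therefore compatible with a change in INSIG1 anywhere within these bounds. The intervals are not adjusted for the number of genes tested. For SREBF2 the interval was -0.30 to 0.41 and for SREBF1 -0.45 to 0.48. The libraries of 8 h and 0 h overlapped for all 7 members, against 3.31% of all tested genes whose libraries did not.

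Between 8 h and 24 h the same 3 members rose, which also tests whether the effects at the 2 times differ. SREBF2 rose 2.04-fold (log2 fold change 1.03, standard error 0.16, adjusted p 0.0177), SREBF1 1.97-fold (0.98, 0.21, 0.03141) and INSIG1 3.41-fold (1.77, 0.30, 0.0183), all by edgeR. Of all tested genes 2.84% were called higher here and 4.56% in either direction. MBTPS1 had 0.21 with adjusted p 0.2818 by edgeR, and SCAP, INSIG2 and MBTPS2 had values of -0.036, -0.018 and -0.15. With the replicate block the same 3 members were called, beside 20.5% of all genes (11.8% higher, 8.71% lower). Libraries of 24 h lay wholly above those of 8 h for 4 members, against 18.2% of all genes and 34.3% in either direction. This comparison shares the libraries of 24 h with the one against 0 h, so the values are set side by side and not counted as separate evidence. Without replicate 1 of 8 h, or without replicate 2 or 3 of 24 h, no member passed; without replicate 3 of 8 h only INSIG1 did (SREBF2 had an adjusted p of 0.05049 and SREBF1 of 0.06445), and without replicate 2 of 8 h SREBF1 did not (0.05359).

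**Figure D3:**
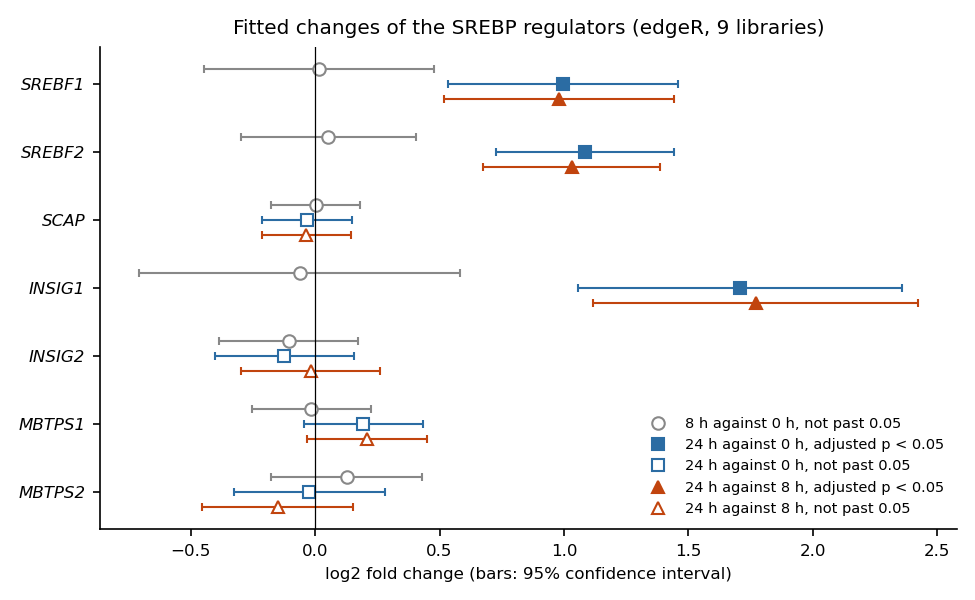
Fitted log2 fold change of each member (x axis) with its 95% confidence interval for 8 h against 0 h (circles), 24 h against 0 h (squares) and 24 h against 8 h (triangles); filled symbols had an adjusted p under 0.05. The intervals of SREBF1, SREBF2 and INSIG1 lie to the right of 0 in both comparisons with 24 h, and all intervals at 8 h include 0.

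Ratios between members within each library do not depend on how libraries are scaled. They are ratios of raw counts, not corrected for exon length. Their change between groups can be read, but not which gene has the higher level. The ratio of INSIG1 to INSIG2 counts was 0.783, 1.5 and 2.03 in the untreated libraries, 0.874, 1.76 and 1.71 at 8 h and 5.71, 4.38 and 5.13 at 24 h. In 2 of the 6 libraries before 24 h, replicate 1 both times, INSIG2 had more counts than INSIG1, and at 24 h INSIG1 led in all 3. The mean log2 ratio rose from 0.42 ± 0.70 (SD, n = 3) at 0 h to 2.34 ± 0.19 (n = 3) at 24 h, a 3.77-fold shift with separate libraries. Without replicate 1 of every group the shift was 2.71-fold. The exact two-sided permutation p was 0.1 with 3 libraries against 3, the smallest this design allows, and 0.2 when adjusted over the 4 ratios.

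The ratio of INSIG1 to SCAP, the retention factor against its binding partner, ran from 0.257 to 0.609 at 0 h, from 0.235 to 0.548 at 8 h and from 1.38 to 1.55 at 24 h. The mean log2 ratio shifted 3.53-fold between 0 h and 24 h, again with an exact permutation p of 0.1 (2.86-fold without replicate 1 of every group). SREBF1 and SREBF2 kept nearly the same ratio: it lay between 0.47 and 0.6 in all 9 libraries, and the mean log2 ratio differed between 0 h and 24 h by -0.076 (exact permutation p = 0.3, 3 libraries against 3), or by -0.165 without replicate 1 of every group. The ratio of MBTPS1 to MBTPS2 was between 3.84 and 4.61 at 0 h, 3.27 and 4.24 at 8 h, and 4.32 and 5.27 at 24 h, with overlapping libraries between 0 h and 24 h (exact permutation p = 0.2) and separate ones between 8 h and 24 h (exact permutation p = 0.1). Its mean log2 ratio at 24 h differed by 0.208 from 0 h and by 0.366 from 8 h. Without replicate 1 of every group these differences were 0.359 and 0.347.

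**Figure D4:**
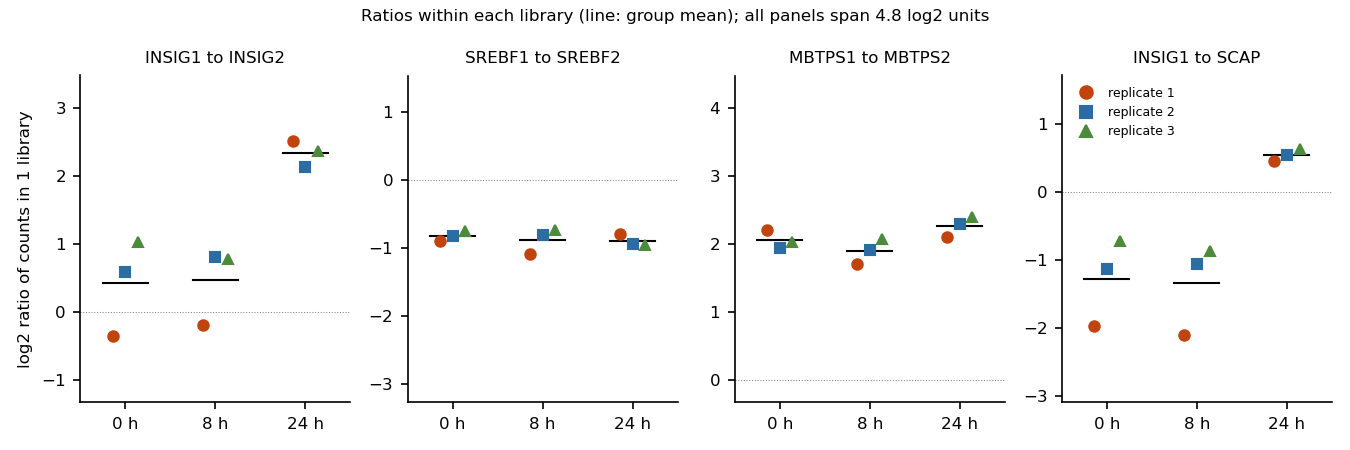
Log2 ratio of raw counts of paired members within each library (y axis) by time (x axis), with the group mean as a line; every panel spans the same height. INSIG1 rises against INSIG2 and against SCAP at 24 h. The SREBF1 to SREBF2 log2 ratio stays between -1.089 and -0.737 (linear ratios of 0.47 and 0.6).

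Levels can be compared between genes only per length, so CPM were divided by the total exon length in kilobases. In untreated cells the order was SREBF2 (17.1 ± 3.65 CPM per kb, SD, n = 3), MBTPS1 (16.4 ± 1.63), SCAP (12.2 ± 0.286), INSIG1 (9.43 ± 3.6), SREBF1 (9.14 ± 2.34), INSIG2 (6.18 ± 0.45) and MBTPS2 (4.54 ± 0.845). Of the 6 neighbouring pairs, MBTPS1 with SCAP and INSIG2 with MBTPS2 had separate libraries and the other 4 overlapped. At 24 h the order was SREBF2 (36.2 ± 1.72), INSIG1 (30.8 ± 1.89), MBTPS1 (18.7 ± 0.386), SREBF1 (18.2 ± 0.9), SCAP (12 ± 0.351), INSIG2 (5.67 ± 0.772) and MBTPS2 (4.47 ± 0.417), all in CPM per kb. INSIG1 had rank 4 at 0 h, where its libraries overlapped those of SCAP and SREBF1, and rank 5 at 8 h. At 24 h it had rank 2, with libraries separate from both of its neighbours. The pairs of MBTPS1 with SREBF1 and of INSIG2 with MBTPS2 overlapped at 24 h. Without replicate 1 of every group the order was the same at 0 h and at 24 h, and INSIG1 had 11.3 and 31.4 CPM per kb.

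The genes whose levels most resembled each member's over the 9 libraries are given by Pearson's r of log2 CPM among 10838 genes of at least 5 CPM, as a description: the libraries are shared and fall into groups by time. Closest to INSIG1 were BHLHE40 (r = 0.996), SREBF1 (0.993) and SREBF2 (0.99). Closest to SREBF1 were INSIG1, BHLHE40 (0.99) and HPS5 (0.988), and closest to SREBF2 were SCD (0.996), HMGCS1 (0.992) and TRAK1 (0.991). Of the 3 genes nearest INSIG1, 2 were members that also rose at 24 h, so these r values hold the same rise and are not separate evidence. For MBTPS1 they were OSBP2 (0.993), HLA-DMB (0.99) and FGF12 (0.986). For MBTPS2 they were ITGB1 (0.979), SVIL (0.97) and NCKAP1 (0.969), for SCAP ITPRIP (0.953), NAAA (0.918) and the pseudogene SSR4P1 (0.914), and for INSIG2 THUMPD2 (0.945), APTR (0.932) and CCDC102A (0.927). Over the 6 libraries numbered 2 and 3, r for these pairs lay between 0.817 (SCAP with SSR4P1) and 0.998 (INSIG1 with SREBF1). The pairs were picked over all 9 libraries, which include these 6.

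The genes that SREBPs switch on were counted beside the regulators at 24 h against 0 h by edgeR. The shares of all tested genes to set beside these counts are 2.47% higher and 1.77% lower, 12.6% and 11.6% with the replicate block, and 8.95% and 7.96% without replicate 1 of every group. Of 23 tested genes for cholesterol synthesis and uptake, 9 rose and none fell (13 rose with the replicate block, against 12.6% of all genes, and 11 without replicate 1), with a median log2 fold change of 0.43. HMGCS1, which makes HMG-CoA, went from 55.9 ± 10.8 to 113 ± 8.13 CPM (SD, n = 3), and IDI1, an isomerase of the isoprenoid steps, from 54.9 ± 6.08 to 105 ± 7.5; genes on the opposite strand overlap 14.95% and 14.8% of their exons. DHCR7, the last enzyme of one branch, and SQLE, squalene epoxidase, had log2 fold changes of 0.89 and 0.76. ACAT2 had a log2 fold change of 0.056 (adjusted p 0.7812), and an opposite-strand gene covers 52.27% of its exonic bases.

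Of 16 tested fatty acid genes, 6 rose and none fell, against 2.47% of all genes called higher (11 rose with the replicate block and 11 without replicate 1), with a median of 0.57. SCD, the stearoyl-CoA desaturase, went from 225 ± 75 to 730 ± 64.2 CPM and FADS2, the delta-6 desaturase, from 89.4 ± 14.2 to 260 ± 36.3 CPM (SD, n = 3). FASN, the fatty acid synthase, and FADS1 had log2 fold changes of 0.87 and 0.54. At 8 h, 0 genes of either list passed, and the medians were -0.040 and 0.0036.

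The genes for sterol-regulated protein degradation at the endoplasmic reticulum, which also destroys INSIG proteins, lay on the other side of 0. Of 15 tested, none passed at 24 h against 0 h without the block. With it 7 fell, against 11.6% of all genes, and without replicate 1 of every group 7 fell, against 7.96%. Log2 fold changes were below 0 for 13, while 50.9% of all tested genes were above 0. Libraries of 24 h lay wholly below those of 0 h for 6, against 14.4% of all tested genes. The median was -0.25, beside 0.0071 over all tested genes. VCP, the segregase that pulls proteins from the membrane, had 789 ± 109 CPM at 0 h and 565 ± 78.5 CPM at 24 h (SD, n = 3), a log2 difference of -0.48 with adjusted p 0.06726 by edgeR (0.001808 with the block). Its cofactors UFD1 (8.44% covered on the opposite strand; -0.48, 0.05849, 0.006122 with the block) and NPLOC4 (-0.46, 0.08143, 0.001925 with the block), by edgeR, had log2 fold changes of like size. RNF145, a sterol-responsive ubiquitin ligase, had a value of -0.26. The ligase RNF139 had a value of 0.031 (adjusted p 0.8741 by edgeR).

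The COPII coat genes, which form the vesicles that carry SCAP and SREBP, had no call among 12 (2 fell with the block, PREB and SEC13, against 11.6% of all genes, and 2 without replicate 1), and a median of -0.084. PREB, the exchange factor that starts the coat, had a log2 fold change of -0.38 (adjusted p 0.0963), SEC13 of -0.31, SAR1B of -0.17 and SEC31A of 0.19. Among 17 cofactors and modulators none passed (4 rose and 1 fell with the block, a share near the 24.1% of all genes called in either direction) and the median was 0.012. Without replicate 1, 2 rose and 1 fell, and the median was -0.064. SP1, a transcription factor that acts with SREBP, had a log2 fold change of 0.48, LPIN1, a phosphatidate phosphatase, of 0.60, FBXW7, part of the ligase that degrades nuclear SREBP, of 0.34, and NFYA, a subunit of NF-Y, of 0.20. Of these 4, the first 3 rose with the block, with adjusted p-values of 0.01396, 0.003126 and 0.02818 by edgeR. LPIN1 is also in the fatty acid list, so it is counted in both lists.

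Other proteins cut by the same proteases had no call among 7 tested genes (1 rose and 1 fell with the block, near the 24.1% of all genes, and 1 fell without replicate 1), with a median of -0.11. CREB3 had a log2 fold change of -0.41 (adjusted p 0.09598; 0.005424 with the block); 10.51% of its exonic bases are shared with an opposite-strand gene. GNPTAB, whose precursor site-1 protease cuts on the way to the lysosomal targeting enzyme, had a value of 0.43 (0.1471; 0.02853 with the block), by edgeR. CREB3L1 and CREB3L4 (12.91% covered on the opposite strand) had values of -0.52 and -0.19 and did not pass.

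The LXR receptors and their efflux targets had 1 rise among 8 tested genes (2 with the block, against 12.6% of all genes, and 2 without replicate 1) and a median of 0.22. ABCG1, a sterol exporter, went from 2.15 ± 0.364 to 4.27 ± 0.769 CPM (SD, n = 3; log2 fold change 0.99, adjusted p 0.02934 by edgeR). MYLIP, a sterol-induced ubiquitin ligase, had a value of 0.58 (0.06623; 0.00625 with the block). ABCA1 had a log2 fold change of 0.52 and LPCAT3 of 0.28, without passing; an opposite-strand gene covers 65.61% of the exonic bases of LPCAT3.

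**Figure D5:**
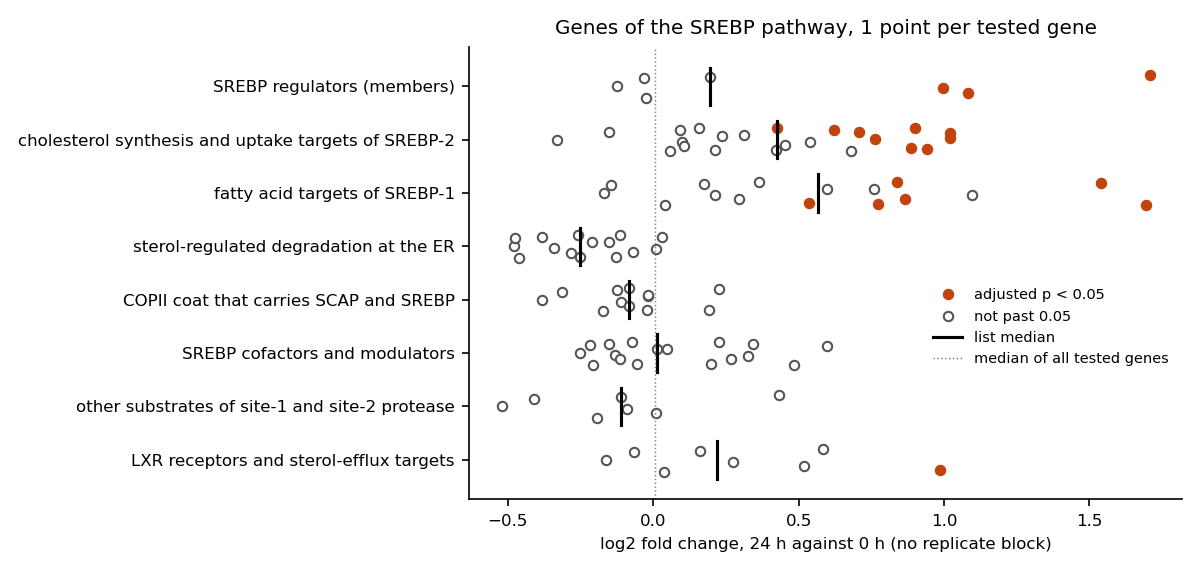
Log2 fold change at 24 h against 0 h (x axis) of each tested gene of the 8 lists (rows), filled where the adjusted p was under 0.05 without the block, with each list's median as a bar and the median of all tested genes as a dotted line. Filled points appear among the regulators, both SREBP target lists and, for ABCG1, the LXR list, and the list for degradation at the endoplasmic reticulum lies mostly left of 0.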

How the data were processed

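The authors deposited 1 table of raw counts, whole numbers for 23727 Ensembl genes in 9 libraries. Per the labels' protocols, the mRNA kit was a stranded one. Bcl2fastq 2.20.0.422, STAR 2.7.4a and GRCh38 are named in the submitters' processing notes; the counting program, annotation release and strand setting are not given in the sources used here. Every column was matched to its sample by time and replicate number. Gene symbols were looked up by identifier for 19733 genes. GENCODE 29 (GRCh38) gave positions and exon lengths and listed 98.0% of identifiers.

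After filterByExpr, 15273 genes stayed. TMM set the library scale. A quasi-likelihood model (edgeR 4.0.16, R 4.3.3) took all 9 libraries with a mean for each group, and each comparison used its two-sided test with Benjamini-Hochberg adjustment over all tested genes and a threshold of 0.05. The script was tested on simulated counts whose levels and spread came from the fit to these data. At 24 h against 0 h it called 32% of simulated 1.5-fold changes and 72% of simulated 2-fold changes. DESeq2 1.42.0, other scalings, no filter, fits of 2 groups, the replicate number as a block and leaving out libraries were alternatives. Ratios of members within a library were compared by exact permutation.

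Whether replicate numbers pair the libraries was read from the correlation, across genes, of same-numbered deviations from the group means. It was 0.476, 0.432 and 0.414 between 0 h and 8 h, 0.367, 0.164 and 0.251 between 0 h and 24 h, and 0.423, 0.0367 and 0.404 between 8 h and 24 h. Libraries of unlike number reached at most 0.0108 between 0 h and 8 h. Between 24 h and 0 h, replicate 2 of 24 h had 0.27 with replicate 3 of 0 h. Between 24 h and 8 h, replicate 2 of 24 h had 0.134 with replicate 3 of 8 h. Pairing of replicates 2 and 3 by number, as given in the titles, was therefore not settled at 24 h. The main test used no pairing, and fits with the replicate block are given beside it. The labels do not say whether replicates were separate cultures, so p-values measure the spread between these libraries.

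The members and gene lists were chosen with earlier results of these data known. All 7 members are named in every comparison; from each pathway list, up to 4 genes are named, those of lowest p between 0 h and 24 h, and for each member the 3 genes of at least 5 CPM with the highest Pearson correlation over the libraries. ACAT2 and RNF139 were named after their values were seen. Some genes of the pathway lists are not reported here.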

Additional observations from a re-analysis of the deposited data

Results flagged for a closer look

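Of the members, 3 had effects at 8 h and at 24 h that differed by the test of the difference itself, edgeR's comparison of 24 h with 8 h. The log2 fold changes were 1.03 for SREBF2, 0.98 for SREBF1 and 1.77 for INSIG1, and in each gene all 3 libraries of 24 h were above all 3 of 8 h. Over all tested genes 2.84% were called higher in this comparison, 18.2% lay wholly above and 34.3% were separate either way. MBTPS1 also lay wholly above without being called (adjusted p 0.2818 by edgeR). As given above, no member passed without replicate 1 of 8 h, or without replicate 2 or 3 of 24 h. Groups of 3 libraries were too small for a test of single outlying libraries.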

How the results depend on the processing

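At 24 h against 0 h, 3 members were called in all 8 alternatives that left out no single library, and the count ran from 0 to 3 over the 9 that left out 1 library each. Over all tested genes, those 8 called between 124 and 3687 genes and those 9 between 0 and 899. At 24 h against 8 h the count of members was likewise 3 in all 8, and from 0 to 3 over the 9. Over all tested genes the calls there ran from 571 to 3130 and from 0 to 2545. With the replicate block added to each omission, chosen after seeing the data, 3 members were called in all 9 fits at 24 h against 0 h. At 24 h against 8 h between 3 and 4 were called, as MBTPS1 passed without untreated replicate 1 (log2 fold change 0.20, adjusted p 0.02267 by edgeR). That fit called 5432 of 15598 tested genes. Over all genes these 9 fits called 2213 to 3815 at 24 h against 0 h and 1179 to 5432 at 24 h against 8 h. At 8 h no alternative called a member. SREBF1, SREBF2 and INSIG1 were higher at 24 h in all 26 alternatives of both comparisons. The replicate block alone changed no other member's call. Over the 18 fits that left out 1 library, with and without the block, log2 fold changes at 8 h against 0 h ran from -0.178 to 0.228 for SREBF1, -0.114 to 0.188 for SREBF2, -0.0181 to 0.0325 for SCAP, -0.325 to 0.231 for INSIG1, -0.195 to 0.0159 for INSIG2, -0.0961 to 0.0753 for MBTPS1 and -0.0526 to 0.249 for MBTPS2. At 24 h against 0 h they ran from -0.251 to 0.00175 for INSIG2 and -0.219 to 0.0971 for MBTPS2, and against 8 h from -0.146 to 0.108 for INSIG2. None of these passed, and the cause was not tested. With library totals alone, SCAP and MBTPS2 had 0.041 and 0.038 at 24 h against 0 h, and SCAP and INSIG2 had 0.026 and 0.046 against 8 h. Without replicate 1 of every group, SCAP had -0.0092 and MBTPS2 -0.021 at 8 h, and INSIG2 had 0.044 and 0.069 at 24 h against 0 h and 8 h.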
